A study of Rattus norvegicus with 45 samples.

Results

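The Rab GTPases are the largest branch of the Ras superfamily, and their messenger RNAs were followed here across 12 groups of rat skeletal muscle. Members were taken by name, as the probe sets whose single gene symbol is Rab followed by a number with optional letters or digits. Partner proteins whose symbols fit this pattern, such as Rab3il1, were left out. The rule uses no measured value, but it was set with earlier results of these data known. It gave 97 probe sets for 56 genes, of 31042 probe sets and 14217 genes on the array. Of these, 85 probe sets for 50 genes passed a filter on low values and were tested. The 12 others included every probe set of Rab17, Rab25, Rab36, Rab37, Rab39a and Rab3c, for which no comparison is given.

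A Rab protein switches between a GTP-bound form, which recruits effectors to one kind of membrane, and a GDP-bound form, which a GDP dissociation inhibitor carries through the cytosol. Exchange factors (GEFs) load GTP, and GTPase-activating proteins (GAPs) speed its hydrolysis. Most Rabs hold to their membrane through geranylgeranyl chains on cysteines near their end. Rab geranylgeranyl transferase adds these chains with the help of Rab escort protein. Statins block HMG-CoA reductase, which lies upstream of the geranylgeranyl donor, and cerivastatin is a potent statin known for muscle toxicity. In muscle, Rabs carry GLUT4 vesicles to the surface, supply membrane from the secretory pathway and route material to lysosomes. The arrays measured RNA, not prenylation or protein.

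The animals were female SD rats given cerivastatin at 0.1 (low), 0.5 (middle) or 1.0 (high) mg/kg/day, or the methylcellulose vehicle, for 14 days. On 5 days a week the exercised animals ran 20 min on a treadmill set to 20 m/min, and the others did not run. Gastrocnemius, a mixed muscle rich in fast fibres, was measured at every dose with and without exercise (30 arrays), and soleus, a slow muscle, in vehicle and high-dose rats only (15 arrays). Groups held 4 arrays each, except that the unexercised high-dose gastrocnemius, the exercised middle-dose gastrocnemius and the unexercised high-dose soleus held 3. The labels give no age, and do not say whether both muscles came from the same rats. Input RNA was 4 µg for gastrocnemius and 3 µg for soleus, so input amount and muscle cannot be told apart. Whole muscle was extracted, so a lower signal cannot tell fewer cells of a type from less RNA per cell.

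The deposited values had trimmed means of 600.2 to 600.31 on every array. The ratio of 5′ to 3′ actin control signal, which falls when RNA is degraded, ran from 0.116 to 0.707. The lowest belonged to low-dose unexercised gastrocnemius replicate 3. This array also stood apart from the other 3 of its group in several Rab genes (below). Tissue labels were borne out for the most part by fibre markers: the summed signal of 11 fast-fibre genes was 630400 to 649400 in unexercised vehicle gastrocnemius and 166100 to 410700 in soleus of the same treatment. The 9 slow-fibre genes summed to 351000 to 540600 in that soleus group. In exercised vehicle gastrocnemius their sum ran from 4343 to 404100, so the slow-fibre content differed widely among those 4 arrays.

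High dose in exercised gastrocnemius. The question was which Rab messages move when muscle is exposed to the drug together with exercise. Rab genes moved both ways: of 50 genes, each represented by its brightest tested probe set, 21 rose and 13 fell. Members of the secretory, endosomal and lysosomal groups were found on both sides. Rab38, Rab31, Rab13, Rab32, Rab27a and Rab8a had the largest rises, and Rab3a, Rab40b, Rab19, Rab12, Rab10 and Rab28 the largest falls. The remaining 16 genes did not pass the threshold, an adjusted p of 0.05 by limma with Benjamini-Hochberg adjustment over all 21729 tested probe sets. In the whole series 27.7% of genes were higher and 21.9% lower in this comparison, against 42% and 26% of the Rab genes. By probe set, 31 of 85 Rab probe sets (36.5%) were higher and 17 (20%) lower, against 23% and 20.4% of all probe sets. The share that fell was therefore near the background, and the share that rose was above it. The median log2 change was 0.25 for the Rab probe sets and -0.01 for all tested ones. The split depended on the scaling: with each array centred on the median of its tested probe sets, a choice made after seeing the data, 23 Rab probe sets were higher and 23 lower (27.1% each), against 17% and 29.1% of all. That scaling put the median of all probe sets at -0.28 and that of the Rab probe sets at -0.02, and no called Rab probe set changed direction.

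Among the 48 called probe sets, the 4 treated and 4 vehicle arrays overlapped in 6 and did not in 42. A call itself favours groups that do not overlap. The share over all called probe sets was not computed, so this count cannot be read as a trait of the Rab genes. Markers of macrophages rose in the 4 treated arrays. All 14 tested macrophage markers (Cd68, Cd14, Lyz2 and others) were higher, and their summed signal was 79030 to 188300 against 6392 to 7913 in vehicle. All 11 tested cell-cycle genes were higher, 7 of 10 fibroblast genes were higher, and 9 of 11 fast-fibre genes were lower. Summed signal of other cell types lay above vehicle on all 4 arrays as well: 983.3 to 13130 against 112.2 to 280 for 3 neutrophil genes, 1569 to 2378 against 566.6 to 810 for 5 lymphocyte genes, and 10200 to 16920 against 4810 to 5813 for 8 Schwann cell genes. The sum of 7 adipocyte genes was 8908 to 22560 against 5790 to 8463, although none of the 7 was called higher and 1 was called lower. No macrophage marker was listed at 0 in vehicle or high-dose gastrocnemius. The part of any of these cell types in the Rab changes was not tested. Actin ratios were 0.437 to 0.578 on the treated arrays and 0.35 to 0.469 in vehicle, and their part was not tested either.

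**Figure D1:**
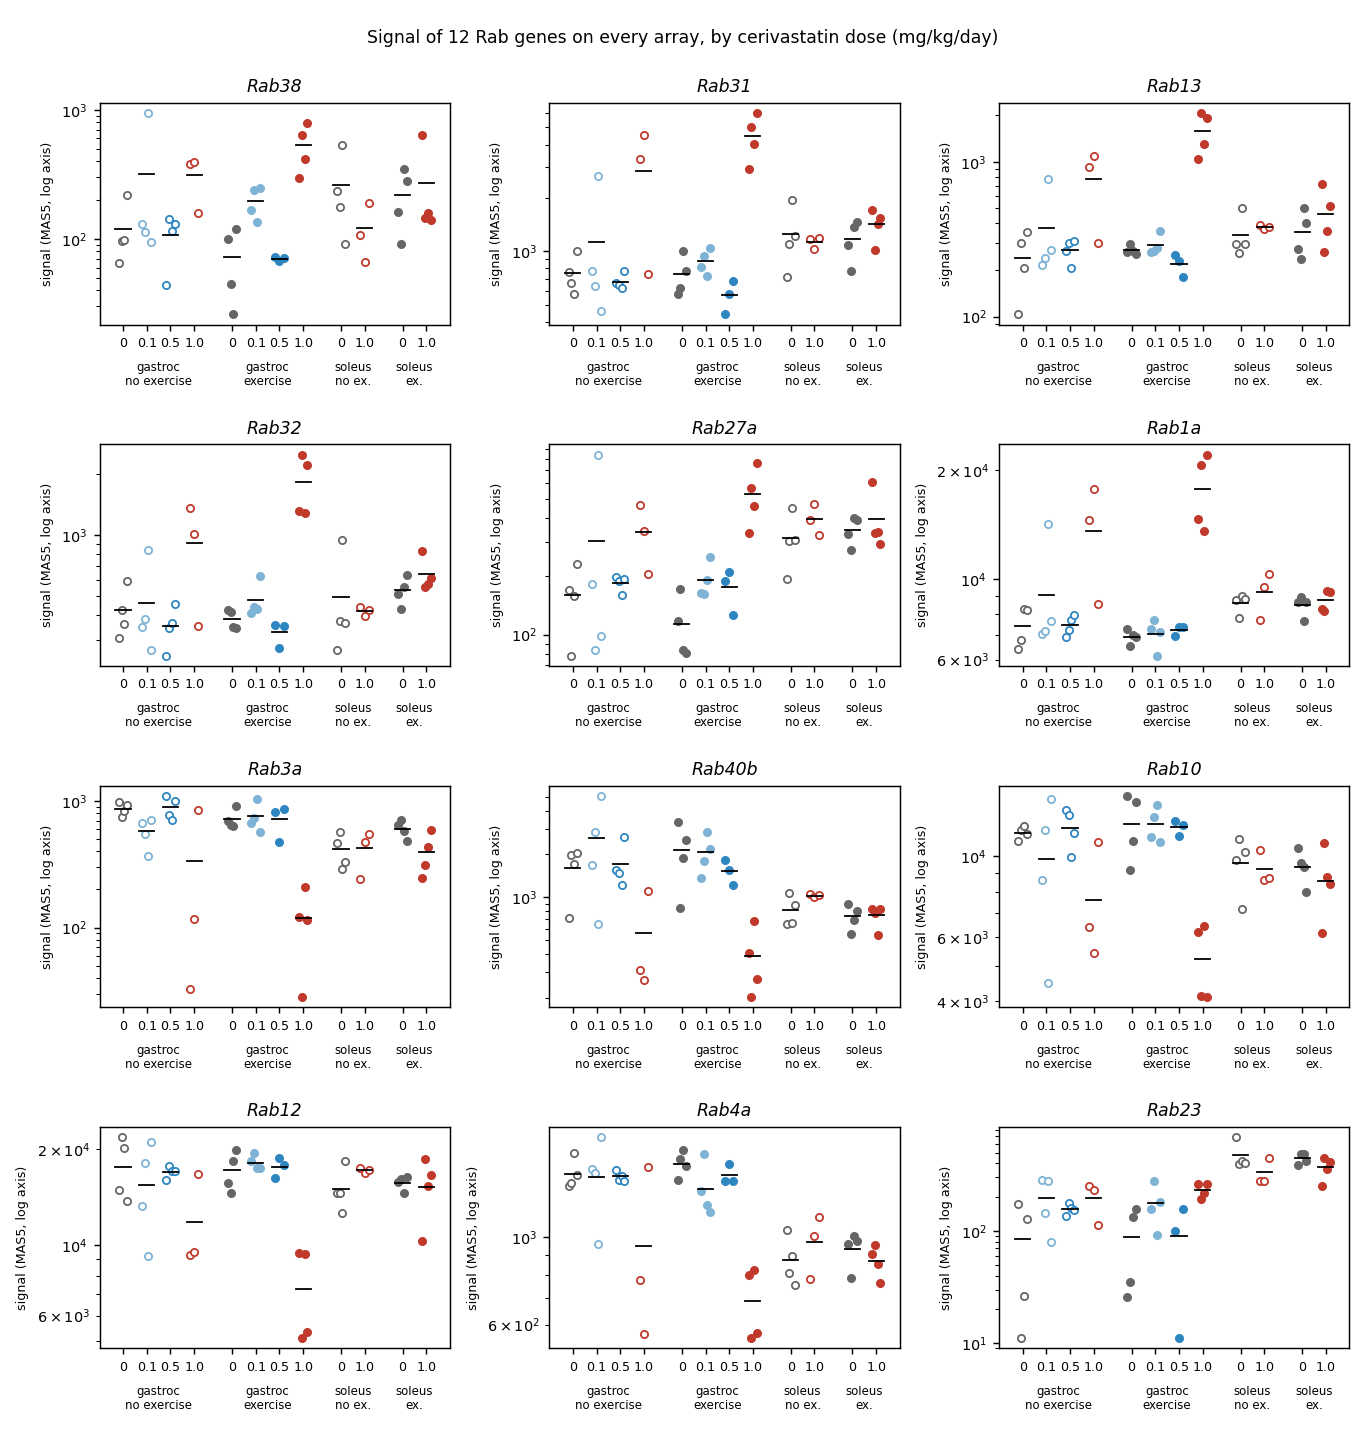
MAS5 signal (log axis) of 12 Rab genes on all 45 arrays, by cerivastatin dose in mg/kg/day; filled points are exercised rats, open points unexercised, and the black bar is the group mean. In the top rows (Rab38, Rab31, Rab13, Rab32, Rab27a, Rab1a) the filled red points of exercised high-dose gastrocnemius lie above vehicle, and in the rows below, for Rab3a, Rab40b, Rab10, Rab12 and Rab4a, beneath it. Of the 3 open red points, unexercised high-dose replicate 3 lies within the vehicle range in genes such as Rab31 (745.1) and Rab3a (848.2).

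Secretory and vesicle Rabs. Rab13, which works in GLUT4 vesicle delivery in muscle cells and at tight junctions, read 262.7, 292.5, 264.1 and 254.6 in exercised vehicle rats and 1042, 2059, 1303 and 1926 at high dose. All treated arrays lay far above the tight vehicle group. The log2 difference was 2.45 ± 0.37 (SE, n = 4 and 4; limma adjusted p = 2.71e-05). Rab8a, a further GLUT4 vesicle Rab, read 258.1, 578.3, 507.2 and 478.8 in vehicle and 1417, 2218, 1402 and 1995 at high dose, a log2 difference of 1.95 ± 0.32 (limma adjusted p = 4.53e-05). Its close relative Rab8b rose in all 3 of its tested probe sets, by 1.67 to 3.28 on the log2 scale. Rab27a, which drives secretion of lysosome-related organelles in immune cells, read 118.0, 170.9, 83.3 and 80.5 in vehicle and 331.7, 566.3, 460.1 and 765.8 at high dose. Its log2 difference was 2.11 ± 0.45 (limma adjusted p = 0.000588), and the groups did not overlap.

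Rab3a, Rab10 and Rab12, of the same functional set, went down. Rab3a, best known from synaptic vesicle release, read 696.1, 644.2, 640.2 and 906.6 in vehicle and 121.1, 28.2, 209.0 and 114.9 at high dose. Every treated array lay far beneath the lowest vehicle array, and the log2 difference was -2.71 ± 0.53 (limma adjusted p = 0.000261). Rab10, the GLUT4 vesicle Rab of fat cells, read 14673, 9158, 11018 and 14123 in vehicle and 6182, 4124, 6414 and 4100 at high dose. It fell by 1.24 ± 0.26 on the log2 scale (limma adjusted p = 0.000474), although its dimmer probe set differed by only -0.08 (limma adjusted p = 0.821). Rab12, counted in this set although it also routes receptors from recycling endosomes to lysosomes, read 15679, 14582, 18392 and 19844 in vehicle and 9406, 5086, 9362 and 5316 at high dose. Both of its probe sets fell, the brighter by 1.28 ± 0.24 (log2; limma adjusted p = 0.000169). In all, 5 of 12 genes of this set rose, 3 fell and 4 did not pass.

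Endosomal Rabs. Rab31, which works between the trans-Golgi network and endosomes, read 576.3, 617.2, 1001 and 770.3 in vehicle and 2911, 5013, 4011 and 6009 at high dose. The groups were separated by a wide gap, with a log2 difference of 2.56 ± 0.43 (limma adjusted p = 5.72e-05). Its dimmer probe set moved further still, by 3.42 ± 0.76 on the log2 scale. Rab11a, the Rab of recycling endosomes, read 3901, 3357, 4138 and 3957 in vehicle and 7748, 11637, 6342 and 9827 at high dose, a log2 difference of 1.18 ± 0.20 (limma adjusted p = 7.01e-05). Its other probe set was flat (log2 difference 0, limma adjusted p = 0.998). Rab4a, which acts in fast recycling from early endosomes, went the other way: it read 1391, 1573, 1665 and 1511 in vehicle and 799.3, 553.6, 824.4 and 570.8 at high dose. The log2 difference was -1.17 ± 0.21 (limma adjusted p = 0.000126), with no overlap.

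Rab5a, the Rab of early endosome fusion, read 2112, 1901, 2085 and 2574 in vehicle and 2497, 2262, 2001 and 2158 at high dose, and its groups overlapped (log2 difference 0.04 ± 0.14, limma adjusted p = 0.817). A dimmer Rab5a probe set was called higher, by 0.94 (limma adjusted p = 0.0485), so the gene's probe sets disagree. Rab14, which carries cargo between the Golgi and endosomes, was higher in all 4 of its probe sets, by 0.31 to 1.06. For the brightest of them the vehicle and treated arrays overlapped, and its call (limma adjusted p = 0.0447) was lost without vehicle replicate 2, 3 or 4 or high-dose replicate 2 or 4 (limma adjusted p from 0.0741 to 0.182) and under 6 other settings, among them arrays centred on their tested probe sets (log2 difference 0.03, limma adjusted p = 0.852). Rab22a had probe sets called in both directions, by -1.05 and 1.24, and 1 that did not pass. Of the 13 endosomal genes, 6 rose, 4 fell and 3 did not pass.

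Late endosome and lysosome Rabs. Rab38 and Rab32 are close relatives that serve melanosomes and other lysosome-related organelles. Rab38 read 99.3, 45, 26 and 119.8 in vehicle and 294.8, 637, 414 and 791.3 at high dose, a log2 difference of 2.76 ± 0.54 (limma adjusted p = 0.000235). Rab32 read 422.3, 414.3, 347.8 and 345.3 in vehicle and 1318, 2505, 1284 and 2225 at high dose, a log2 difference of 2.17 ± 0.33 (limma adjusted p = 3e-05). Neither gene's groups overlapped. Rab7a, the main Rab of late endosome and lysosome fusion, read 10697, 9061, 12274 and 13371 in vehicle and 6266, 5834, 6395 and 6394 at high dose. It fell by 0.85 ± 0.16 on the log2 scale (limma adjusted p = 0.000208), and its 4 treated arrays lay close together. Its dimmer probe set differed by -0.29 and did not pass. Of the 8 genes of this set, 4 rose and 2 fell.

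Early secretory and other Rabs. Rab1a, which moves cargo from the endoplasmic reticulum to the Golgi, read 7284, 6548, 6989 and 6937 in vehicle and 14637, 20661, 13565 and 22058 at high dose. The vehicle arrays were nearly alike and the treated ones far above, with a log2 difference of 1.32 ± 0.21 (limma adjusted p = 3.9e-05). Rab2a, which works in traffic between the Golgi and the endoplasmic reticulum, read 11857, 8651, 11472 and 15506 in vehicle and 6345, 5210, 4811 and 4299 at high dose (log2 difference -1.18 ± 0.23, limma adjusted p = 0.00023). The dimmer Rab2a probe set differed by -0.43 and did not pass. The Golgi Rab Rab19 fell from 122.5 to 166.5 in vehicle to between 13.2 and 70.3, levels near the low end of the array, by 1.46 ± 0.44 on the log2 scale (limma adjusted p = 0.00866). Of the 13 genes of the early secretory set, 5 rose and 2 fell.

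Outside these sets stood Rab40b, an atypical Rab with a SOCS box, which links proteins to ubiquitin ligases. It read 3338, 837.2, 1883 and 2515 in vehicle and 410.2, 201.9, 684.6 and 271.1 at high dose, a log2 difference of -2.39 ± 0.52 (limma adjusted p = 0.000637). The vehicle arrays themselves varied several-fold, but all lay above every treated array. Rab28, known from cilia and photoreceptors, read 9748, 6921, 9504 and 11673 in vehicle and 4648, 3814, 4312 and 3503 at high dose, a log2 difference of -1.20 ± 0.25 (limma adjusted p = 0.000381).

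**Figure D2:**
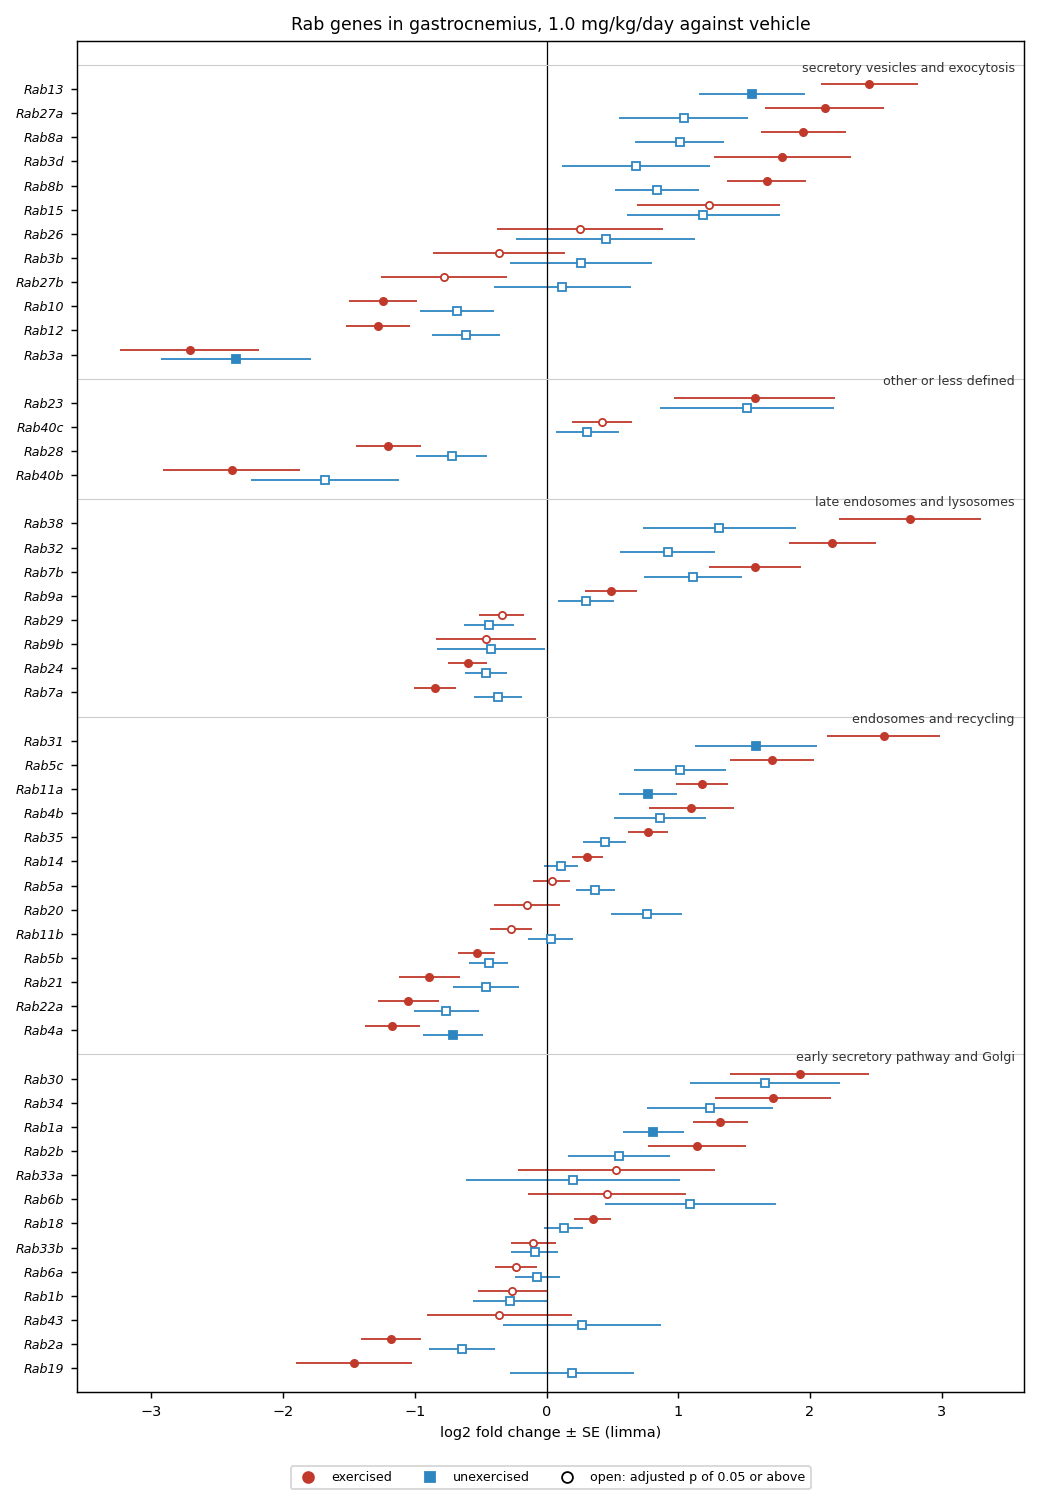
Log2 fold change ± SE (limma) at high dose against vehicle in gastrocnemius for 50 Rab genes in 5 functional sets; red circles are exercised rats, blue squares unexercised, and open symbols did not pass an adjusted p of 0.05. Rises and falls occur within every set, from 2.76 for Rab38 to -2.71 for Rab3a in exercised rats, and most unexercised values have the same sign and a smaller size.

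Close relatives in several cases carried opposite signs. These pairs were chosen after their values were seen, and the difference within a pair was not tested. Rab3a fell by 2.71 while the secretory granule Rab Rab3d rose by 1.79 ± 0.52 on the log2 scale. Rab2a fell by 1.18 while Rab2b rose by 1.14 ± 0.37. Rab4a fell by 1.17 while Rab4b rose by 1.10 ± 0.32. Rab7a fell by 0.85 while Rab7b, which acts in endosome to Golgi traffic, rose by 1.58 ± 0.35. The other tested probe set of Rab2a (-0.43), of Rab2b (0.74) and of Rab7a (-0.29) did not pass. Among the early endosome Rabs, Rab5c rose by 1.71 ± 0.32. Of 4 Rab5b probe sets 2 fell, the brightest by 0.53 ± 0.14 and a dim one by 2.12 ± 0.55, and 2 did not pass. Of the 26 genes with several tested probe sets, 8 had all of them called in 1 direction, 10 had some called and the rest not, 7 had none called, and Rab22a was called both ways.

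Start regions of 4 genes are shown because these genes moved furthest among those with an entry in the RefSeq promoter table (GRCr8), and in opposite directions. That table held 45 of the 56 Rab genes. The window runs from 250 bases before to 50 bases after the annotated start, 5′ to 3′ on the gene's strand. Capitals mark, on either strand, the E-box CACGTG, the CCAAT box CCAAT, the core GAGGAA of the site of the macrophage and lymphoid factor PU.1, and the sterol response element core TCACNCCAC (which none of the 4 holds). Rab31 (chr9:112828043-112828342, minus strand) and Rab13 (chr2:177972720-177973019, plus strand) rose. Rab3a (chr16:18722224-18722523, minus strand) and Rab40b (chr10:107157326-107157625, minus strand) fell.
Rab31: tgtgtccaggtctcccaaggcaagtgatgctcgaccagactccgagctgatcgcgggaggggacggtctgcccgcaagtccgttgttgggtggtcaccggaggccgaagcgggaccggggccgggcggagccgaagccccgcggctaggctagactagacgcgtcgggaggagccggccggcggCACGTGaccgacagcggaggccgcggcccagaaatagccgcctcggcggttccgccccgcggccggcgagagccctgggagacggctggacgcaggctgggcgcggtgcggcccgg
Rab13: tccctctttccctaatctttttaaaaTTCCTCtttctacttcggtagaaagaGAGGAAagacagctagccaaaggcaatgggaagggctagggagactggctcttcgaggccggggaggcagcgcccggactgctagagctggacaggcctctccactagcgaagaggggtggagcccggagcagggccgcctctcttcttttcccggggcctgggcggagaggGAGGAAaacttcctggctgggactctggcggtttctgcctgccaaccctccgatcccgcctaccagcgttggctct
Rab3a: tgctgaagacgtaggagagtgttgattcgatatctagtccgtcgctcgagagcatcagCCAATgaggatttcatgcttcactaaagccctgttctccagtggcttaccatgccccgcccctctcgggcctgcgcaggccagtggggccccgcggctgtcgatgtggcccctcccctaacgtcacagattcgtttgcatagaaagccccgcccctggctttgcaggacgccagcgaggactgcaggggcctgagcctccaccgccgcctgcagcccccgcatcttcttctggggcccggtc
Rab40b: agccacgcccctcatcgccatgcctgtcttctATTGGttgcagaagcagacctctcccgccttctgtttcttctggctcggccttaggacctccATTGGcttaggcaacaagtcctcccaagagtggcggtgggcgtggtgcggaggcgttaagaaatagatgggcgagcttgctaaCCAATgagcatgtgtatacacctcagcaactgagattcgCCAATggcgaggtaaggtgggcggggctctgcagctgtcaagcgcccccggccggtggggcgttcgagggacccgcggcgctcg

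Rab31 holds 1 E-box and Rab13 holds 3 PU.1 cores. Rab3a holds 1 CCAAT box and Rab40b holds 4. Over the 45 Rab genes the CCAAT box occurred in 37.8% of start regions against 39.6% of all 27457 genes in the table. The PU.1 core occurred in 31.1% against 29.2%, and the E-box in 8.89% against 7.08%. The sterol response element core was in 0 of the 45 Rab windows and in 1.25% of all. By direction, the PU.1 core was in 5 of the 18 risers and 5 of the 10 fallers with an entry, and the CCAAT box in 6 of 18 and 5 of 10. Rab start regions were richer in G and C than most: their median GC content was 63.7% against 52.3% for all genes. A match describes these letters only.

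High dose without exercise. In unexercised gastrocnemius fewer Rab genes passed. Of 50 Rab genes, 4 rose (Rab31, Rab13, Rab1a and Rab11a) and 2 fell (Rab3a and Rab4a), or 8% and 4%, against 7.32% and 3.96% of all genes. By probe set, 7 of 85 were higher and 3 lower (8.24% and 3.53%), against 5.7% and 3.81% of all. At an unadjusted p under 0.05 the limma fit had 38 of 85 Rab probe sets (44.7%), against 27.9% of all. Centred on tested probe sets, the Rab calls were 6 higher and 4 lower, against 4.54% and 5.21% of all, with the median of all at -0.13. Among the 10 called probe sets the groups overlapped in 8, a count again given without the share over all called probe sets. In the genes below, 1 of the 3 treated arrays, replicate 3, lay in or near the vehicle range.

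Rab13 read 103.2, 299.8, 205.7 and 353.9 in unexercised vehicle rats and 926.5, 1091 and 297.4 at high dose (log2 difference 1.56 ± 0.40, n = 3 and 4; limma adjusted p = 0.0225). Rab31 read 760.1, 664.4, 576.9 and 1009 in vehicle and 3313, 4499 and 745.1 at high dose (1.59 ± 0.46, limma adjusted p = 0.0335). In both genes replicate 3 lay within the vehicle range. Rab1a read 6431, 6809, 8287 and 8233 in vehicle and 14581, 17711 and 8525 at high dose (0.81 ± 0.23, limma adjusted p = 0.0291), and here no treated array fell into the vehicle range. Rab11a read 3446, 4247, 3884 and 4142 in vehicle and 7949, 9264 and 4098 at high dose (0.77 ± 0.22, limma adjusted p = 0.0291). Its replicate 3 again sat among the vehicle arrays. The falls had the same shape. Rab3a read 987.7, 744.6, 828.0 and 924.2 in vehicle and 32.7, 117.4 and 848.2 at high dose (-2.36 ± 0.57, limma adjusted p = 0.0176). Rab4a read 1344, 1372, 1631 and 1433 in vehicle and 777.2, 566.5 and 1508 at high dose (-0.71 ± 0.23, limma adjusted p = 0.0481). Neither gene was low on replicate 3.

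These calls depended on single arrays. Without high-dose replicate 3, 36 Rab probe sets were called and all 10 kept their call. The share of all probe sets in that fit is not given, so the 36 cannot be read as particular to the Rab genes. Without replicate 1 or without replicate 2 none was called, as with a limma fit on only the groups compared. Leaving out vehicle replicate 1, 2 or 3 left 2, 3 and 3 calls. Macrophage marker signal divided the 3 treated arrays in the same way: its sum was 94790 and 101800 on replicates 1 and 2, and 11450 on replicate 3, within the 4750 to 16150 of vehicle. Other sums lay above vehicle on all 3 treated arrays: Schwann cell (13320 to 45090 against 4750 to 9102) and endothelium (11120 to 11820 against 7846 to 9706). So did lymphocyte (750.9 to 1438 against 595.5 to 734.5) and cell cycle (1151 to 12140 against 758.5 to 1134). The fast-fibre sum lay below vehicle on all 3 (166400 to 565300 against 630400 to 649400). Neutrophil, mast cell, adipocyte, fibroblast and slow-fibre sums overlapped vehicle. Of the markers, 13 of 14 macrophage genes and 8 of 11 cell-cycle genes were higher and 5 of 11 fast-fibre genes lower. Their part in the Rab values was not tested.

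Exercised and unexercised effects lay in the same direction. The comparisons rest on separate vehicle and treated arrays. Of the 48 Rab probe sets called in exercised rats, 46 (95.8%) had the same sign without exercise, as did 96.9% of the 9424 probe sets called in the whole series. The exceptions were Rab19 (-1.46 with and 0.19 without exercise) and the dimmer called probe set of Rab22a (1.24 and -0.35). Of the 48, 9 were also called without exercise. The matching count among the 9424 is not given, so 9 of 48 cannot be called particular to the Rab genes. Over all 48, the median absolute log2 change was 1.39 with exercise, the comparison that chose them, and 0.78 without. For the 9424 probe sets chosen the same way over the whole array it was 1.3 and 0.71. The interaction itself did not reach the threshold for any Rab probe set (limma; background 0% higher and 0% lower, lowest Rab adjusted p 0.705). It gave an unadjusted p under 0.05 for 8 of 85 (9.41%), against 6.33% of all probe sets. So a larger response with exercise was not shown for the Rab genes.

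**Figure D3:**
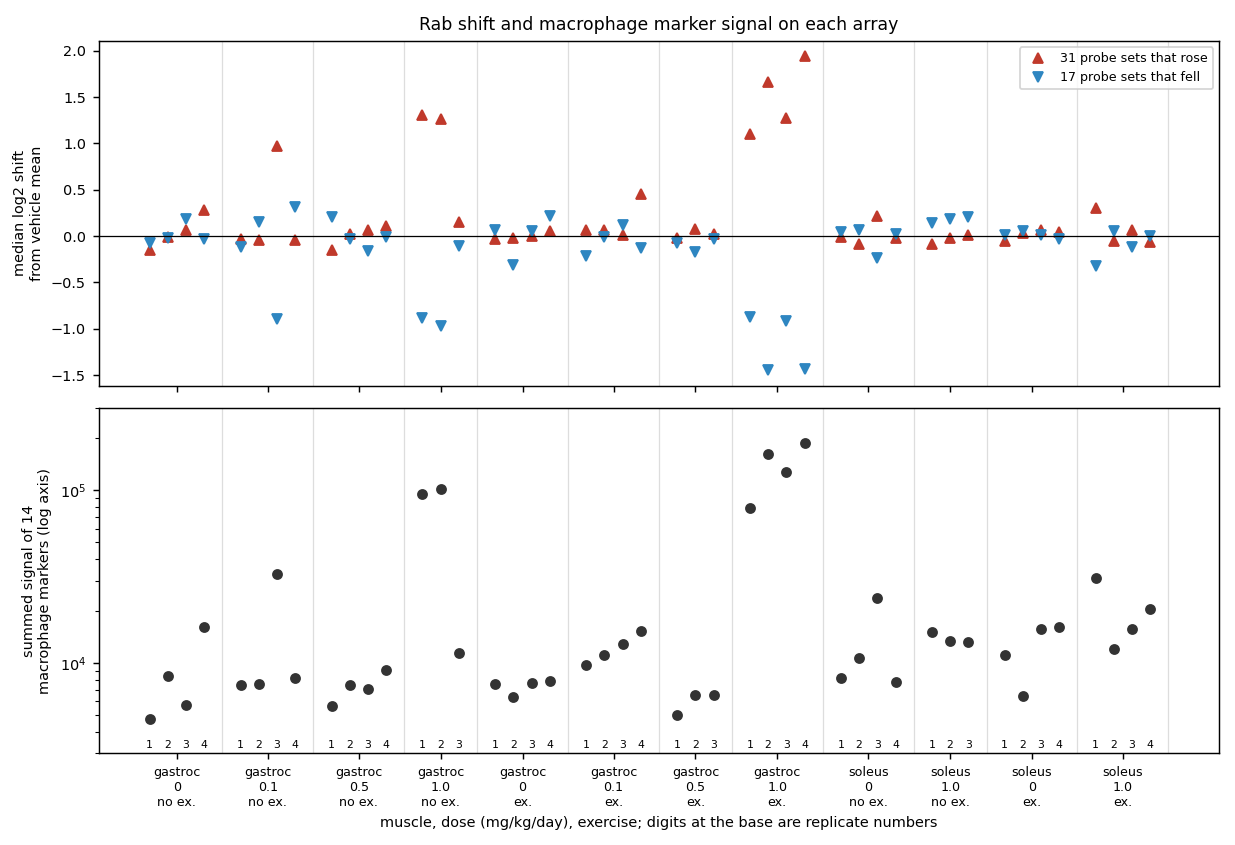
Top: for each array, the median log2 shift from its vehicle group's mean over the 31 Rab probe sets that rose (red) and the 17 that fell (blue) at high dose in exercised gastrocnemius. Bottom: summed signal of 14 macrophage markers (log axis); high-dose unexercised replicate 3 sits near vehicle in both panels, and low-dose unexercised replicate 3 (0.97 and -0.90, macrophage sum 32650) sits apart from its group in both.

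Lower doses and single arrays. At the low and middle doses no Rab probe set passed in limma, with or without exercise, and no probe set of the array did (0% in each direction in all 4 comparisons). An unadjusted p under 0.05 was found for 8 of 85 Rab probe sets at low dose with exercise and 4 without, and for 1 at middle dose with exercise and 4 without. The corresponding shares of all probe sets were 4.4%, 4.07%, 2.88% and 2.73%, and those of the Rab probe sets 9.41%, 4.71%, 1.18% and 4.71%. The exercised low-dose arrays had actin ratios of 0.248 to 0.334, all below the 0.35 to 0.469 of exercised vehicle. Their macrophage sums (9754 to 15410) all lay above the 6392 to 7913 of vehicle, and their Schwann cell sums (6248 to 9781) above 4810 to 5813. The part of these in the Rab values was not tested. Exercise alone, in vehicle gastrocnemius, gave 0 Rab calls, beside 0% of all probe sets in either direction. None of the 85 had an unadjusted p under 0.05 there, against 3.33% of all probe sets. The median Rab change at middle dose was -0.03 with exercise and 0.03 without.

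The group comparison hides 1 array. The 31 probe sets that rose at high dose with exercise were shifted on the 4 arrays of that group by medians of 1.10, 1.66, 1.27 and 1.94, and the 17 that fell by -0.87, -1.45, -0.92 and -1.43; these values follow from the choice of the sets. In unexercised high-dose rats, whose arrays did not choose them, the shifts were 1.31, 1.26 and 0.15 for the risers and -0.88, -0.97 and -0.11 for the fallers. Low-dose unexercised replicate 3 showed 0.97 and -0.90, while the other 3 of its group lay between -0.04 and -0.03 for the risers. On that array Rab1a read 14228 against 7057 to 7678 on the other 3, Rab11a 6008 against 3873 to 4084, and Rab10 4470 against 8625 to 14426. The same array had a macrophage sum of 32650, against 7438 to 8145 on the other 3, and the lowest actin ratio of the series, 0.116. Its marker sums stood further apart for other cell types: 128700 against 5235 to 10300 for adipocytes, 89520 against 3525 to 14030 for Schwann cells and 44280 against 6140 to 10250 for endothelium. Its fast-fibre sum was 232800, against 507900 to 650900. What set it apart was not tested. In low-dose exercised replicate 4 the risers were shifted by 0.46 and the fallers by -0.13.

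Soleus. The series asks why muscles differ in their sensitivity to statins, and the Rab genes of soleus showed no called change. At high dose 0 of 85 Rab probe sets passed in limma, with or without exercise, as did 0% of all probe sets in each direction. Unadjusted p was under 0.05 for 4 of 85 with exercise and 2 without (5.32% and 2.73% of all). Exercise in vehicle soleus also gave 0 calls (0% in each direction of all), with 2 of 85 at an unadjusted p under 0.05 (2.97% of all). In exercised rats Rab1a read 8635, 8918, 7675 and 8635 in vehicle soleus and 8259, 8188, 9282 and 9199 at high dose, a log2 difference of 0.04 ± 0.12. Rab31 read 1082, 769.2, 1376 and 1465 in vehicle and 1702, 1013, 1426 and 1542 at high dose (0.29 ± 0.27). Rab3a read 651.2, 710.8, 576.3 and 484.2 in vehicle and 246.5, 311.9, 433.5 and 593.5 at high dose (-0.66 ± 0.30). In all 3 genes the groups overlapped, and none passed.

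The difference between the muscles in their response was tested directly. In exercised rats the high-dose effect differed between soleus and gastrocnemius for 34 of 85 Rab probe sets (40%). In 13 (15.3%) the soleus effect was the higher and in 21 (24.7%) the lower, against 11.6% and 13.7% of all probe sets. Written as soleus minus gastrocnemius on the log2 scale, Rab38 differed by -2.64 ± 0.80 (limma adjusted p = 0.0143), Rab31 by -2.27 ± 0.55 (0.00324) and Rab13 by -2.12 ± 0.51 (0.00302). Rab40b differed by 2.41 ± 0.63 (0.00571). The vesicle Rabs Rab8a (-1.71 ± 0.44) and Rab10 (1.09 ± 0.34) passed too, as did Rab1a (-1.28 ± 0.26), Rab11a (-1.10 ± 0.25), Rab7a (0.97 ± 0.20) and Rab2a (1.32 ± 0.28). With arrays centred on their tested probe sets the split was 16 higher and 16 lower, against 15.8% and 10.1% of all, with the median of all at 0.22 in place of -0.04. The macrophage marker sum of soleus was 6468 to 16180 in exercised vehicle rats and 12120 to 31060 at high dose, and its part in the difference was not tested. In unexercised rats the same interaction called 0 Rab probe sets and 0.0046% of all in each direction (limma; 23 of 85 Rab probe sets had an unadjusted p under 0.05, against 18.1% of all). Without high-dose gastrocnemius replicate 3 it called 21 Rab probe sets, a count given without the share of all probe sets in that fit.

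**Figure D4:**
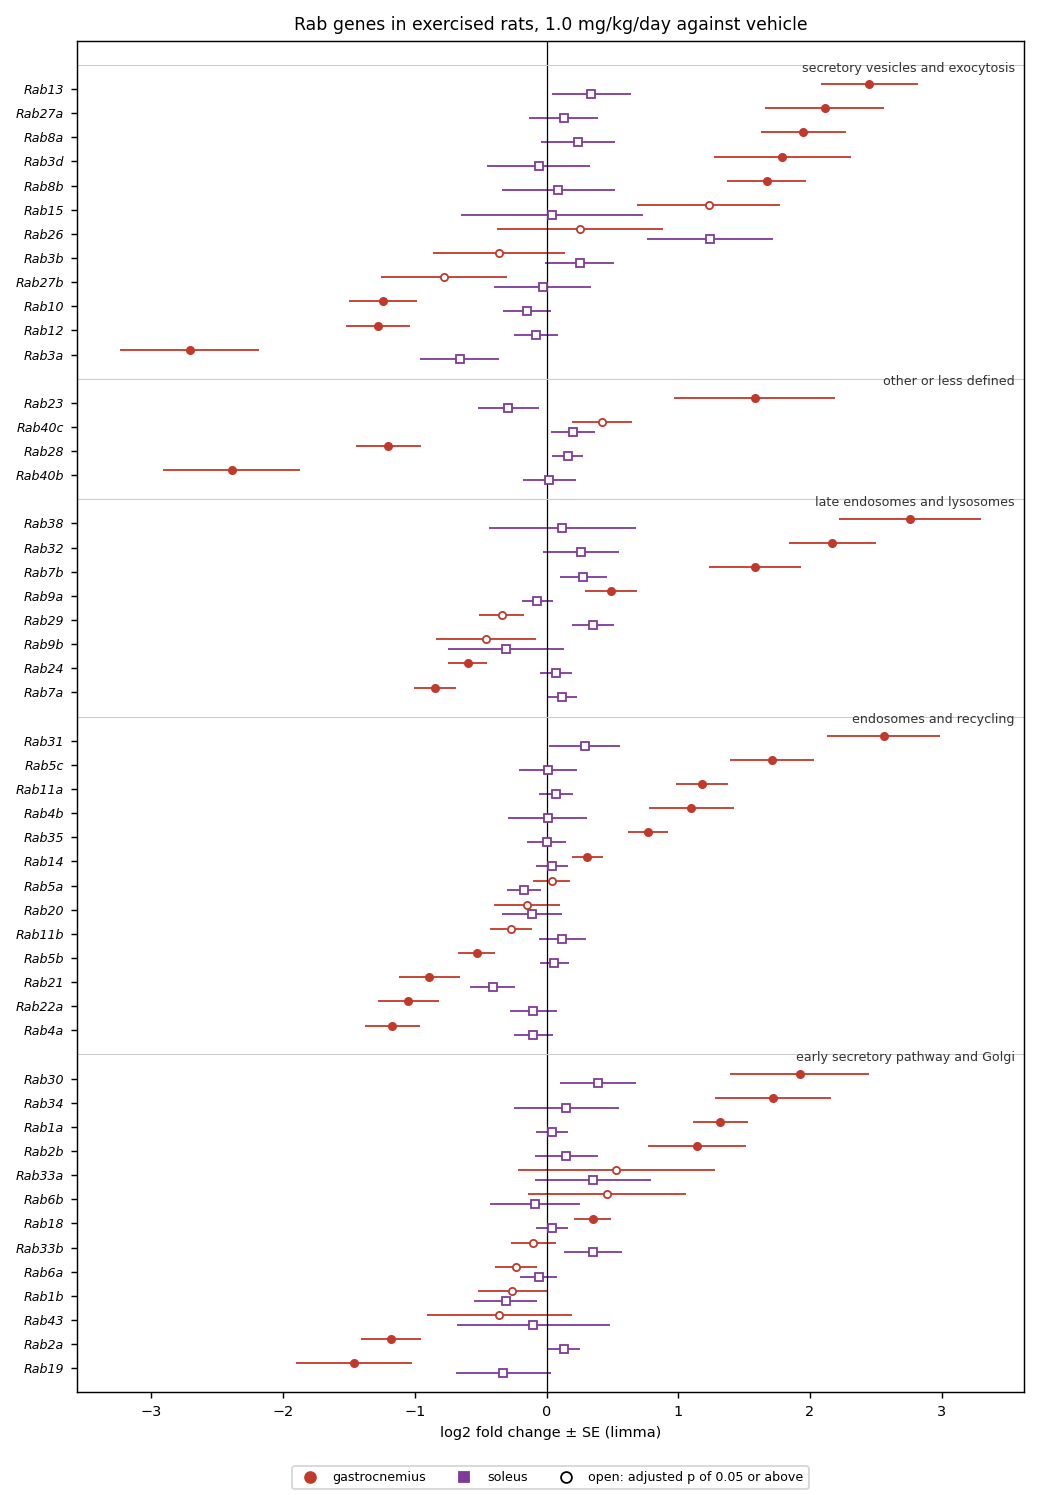
Log2 fold change ± SE (limma) at high dose against vehicle in exercised rats for 50 Rab genes; red circles are gastrocnemius, purple squares soleus, and open symbols did not pass an adjusted p of 0.05. No soleus symbol is filled, and soleus values such as 0.04 for Rab1a and 0.02 for Rab40b sit near 0 where gastrocnemius moved by 1.32 and -2.39.

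Rab levels in the untreated muscles also differed, although the muscles differed in input RNA too (above), and the part of that was not tested. In unexercised vehicle rats, soleus was higher than gastrocnemius in 2 of 85 Rab probe sets (2.35%, against 3.26% of all) and lower in 6 (7.06%, against 3.76%). Rab23, which acts in ciliary traffic and Hedgehog signalling, read 686.0, 395.9, 421.6 and 400.6 in soleus and 173.8, 11.1, 26.1 and 128.8 in gastrocnemius. The log2 difference was 2.77 ± 0.52 (limma adjusted p = 0.00133), with no overlap although the gastrocnemius arrays spread widely. The values of 11.1 and 26.1 are near the low end of the array. The dimmer Rab23 probe set did not pass (mean signal 192.8 in soleus and 103.2 in gastrocnemius). A dimmer Rab14 probe set was higher by 0.92 ± 0.28 (limma adjusted p = 0.0411). Rab2a read 5530, 6785, 7415 and 5880 in soleus and 9922, 11433, 12808 and 12900 in gastrocnemius. Both of its probe sets were lower in soleus, by 0.88 ± 0.20 for the brighter (log2; limma adjusted p = 0.00578).

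Rab6a, which works within and out of the Golgi, read 3861, 4444, 3280 and 3896 in soleus and 5886, 7025, 7618 and 5707 in gastrocnemius (-0.76 ± 0.15, limma adjusted p = 0.00228). Rab4a read 1042, 811.9, 893.8 and 757.1 in soleus against 1344 to 1631 in gastrocnemius (-0.72 ± 0.19, limma adjusted p = 0.0181). Rab28 (-0.68 ± 0.21, limma adjusted p = 0.042) and Rab7a (-0.52 ± 0.14, limma adjusted p = 0.0211) were lower as well. None of these groups overlapped. Rab6a lost its call with the mean of its probe sets in place of the brightest (limma adjusted p = 0.304). Rab28 lost its call when any single one of the 8 arrays was left out (limma adjusted p from 0.053 to 0.107) and under 4 other settings. Rab4a lost its call without gastrocnemius replicate 3 (limma adjusted p = 0.0662) or soleus replicate 4 (limma adjusted p = 0.0645).

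In exercised vehicle rats, which are other arrays, 3 Rab probe sets were higher in soleus (3.53%, against 6.33% of all) and 7 lower (8.24%, against 6.83%). Rab23 was higher by 2.48 ± 0.52 (limma adjusted p = 0.00133) and Rab27a by 1.56 ± 0.41 (limma adjusted p = 0.00847). Rab27a read 328.2, 271.6, 399.2 and 387.7 in soleus, all above the 80.5 to 170.9 of gastrocnemius. Rab2a, Rab28, Rab7a, Rab6a and Rab4a were lower again, by 0.97, 0.95, 0.85, 0.72 and 0.71 on the log2 scale. Rab40b was lower too, by 1.38 ± 0.45 (limma adjusted p = 0.0355), with overlapping groups. This call was lost without gastrocnemius replicate 1, 3 or 4 or soleus replicate 2, 3 or 4 (limma adjusted p from 0.0615 to 0.142).

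**Figure D5:**
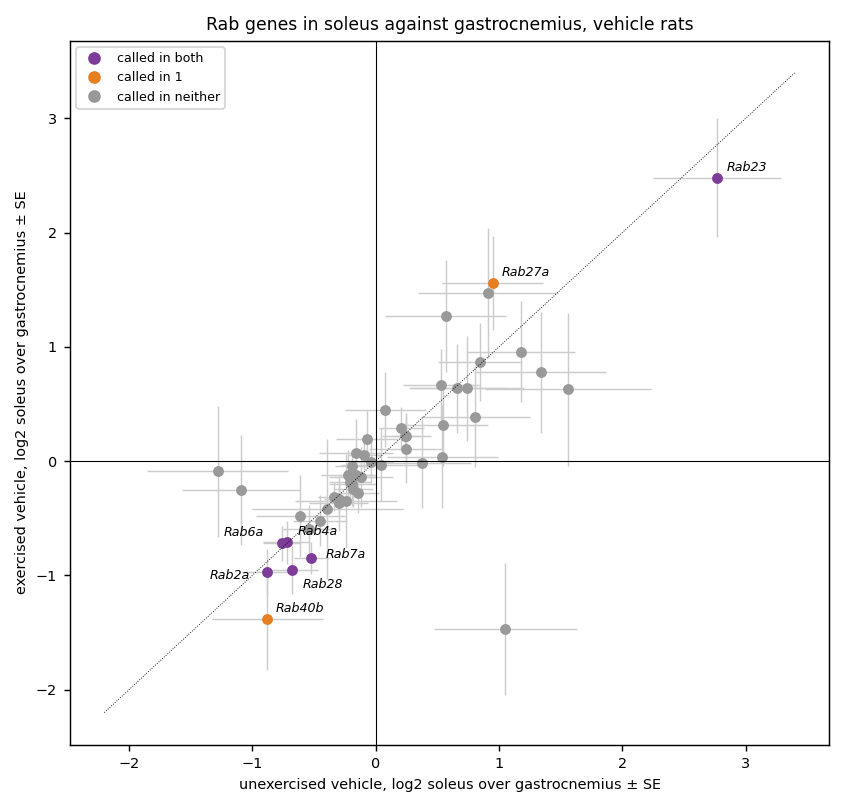
Log2 difference ± SE (limma), soleus over gastrocnemius, of 50 Rab genes in unexercised (x axis) and exercised (y axis) vehicle rats; purple points were called in both, orange in 1, grey in neither, and the dotted line marks equality. Rab23 stands alone at the upper right (2.77 and 2.48), and Rab2a, Rab4a, Rab6a, Rab7a and Rab28 lie together at the lower left.

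The muscle difference in unexercised vehicle rats and the high-dose effect in exercised gastrocnemius share no array. Of the 6 probe sets lower in soleus, 4 (66.7%) also fell in gastrocnemius at high dose, which is 23.5% of the 17 that fell. They were Rab2a, Rab4a, Rab7a and Rab28. Over all tested probe sets, 524 of the 817 lower in soleus (64.1%) also fell, which is 11.8% of the 4434 that fell. Counted over those lower in soleus, the Rab share was near that of the array. Counted over those that fell, it was higher (23.5% beside 11.8%), but this rests on 4 probe sets and was not tested. Both of the 2 probe sets higher in soleus (Rab23 and Rab14) rose, which is 6.45% of the 31 that rose. Over all tested probe sets, 265 of the 709 higher in soleus (37.4%) rose, and 2 probe sets are too few to set against that share. Fast-fibre marker signal was lower both in soleus and in high-dose gastrocnemius (119400 to 301000 against 632400 to 716500 in exercised vehicle), and its part in these values was not tested.

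Machinery around the Rabs. The enzymes that prenylate Rabs did not pass in exercised gastrocnemius at high dose. Of 5 tested genes for Rab prenylation and recycling, 1 rose and 1 fell (20% each, beside 27.7% and 21.9% of all genes). Gdi2, the GDP dissociation inhibitor that recycles Rabs, rose from a mean of 7087 to 13020 (log2 difference 0.86 ± 0.15, limma adjusted p = 0.000116). Rabac1, which releases Rabs from that inhibitor at the membrane, fell from 6047 to 4158 (-0.60 ± 0.17, limma adjusted p = 0.00499). The transferase subunits Rabggta (-0.19 ± 0.31) and Rabggtb (-0.33 ± 0.16) and the escort protein gene Chm (0.11 ± 0.34) did not pass.

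Upstream, 3 of 6 genes of isoprenoid supply rose (50%, beside 27.7% of all genes) and none fell. Idi1, which makes dimethylallyl pyrophosphate, went from a mean of 307.8 to 2219 (2.69 ± 0.39, limma adjusted p = 1.79e-05). It was also the only gene of these 3 lists called in unexercised rats (2.04 ± 0.42, limma adjusted p = 0.0116). Fdps, the farnesyl pyrophosphate synthase, rose by 0.78 ± 0.24 and Pmvk, a kinase of the mevalonate pathway, by 0.77 ± 0.19. Ggps1, which makes the geranylgeranyl donor, differed by 0.07 ± 0.16 and did not pass. Among 7 genes of other protein prenylation, 1 rose (14.3%, beside the same 27.7%) and none fell: only Rce1, the protease that trims prenylated proteins, passed (0.71 ± 0.29, limma adjusted p = 0.0481). In soleus of exercised rats none of the genes of these 3 lists passed.

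Regulators and effectors moved both ways. Of 31 tested Rab GAPs 8 rose and 8 fell (25.8% each, beside 27.7% and 21.9% of all genes), led by Tbc1d9 (1.98 ± 0.40) and Tbc1d2b (1.41 ± 0.40) upward and by Grtp1 (-2.85 ± 0.60) and Tbc1d10c (-1.97 ± 0.44) downward. Tbc1d4, the insulin-regulated GAP of GLUT4 vesicle Rabs, named after its value was seen, fell by 1.13 ± 0.30 (limma adjusted p = 0.00348). Of 26 GEFs 7 rose and 7 fell (26.9% each). The Rab5-family exchange factors Rin3 (2.59 ± 0.31) and Rin2 (2.47 ± 0.37) and Rab3il1 (2.72 ± 0.49), an exchange factor for Rab8 proteins, rose most, and Rabgef1, another Rab5-family exchange factor, fell most (-2.15 ± 0.36). Of 35 effectors 12 rose and 7 fell (34.3% and 20%). Myo5a, a myosin motor that Rab27a and other Rabs recruit, rose by 3.05 ± 0.45. Micall2, a Rab13 effector, rose by 2.85 ± 0.58, and Rilpl1, an effector of LRRK2-phosphorylated Rabs, fell by 2.38 ± 0.41.

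Other small GTPases are the nearest comparison. In exercised gastrocnemius at high dose 6 of 25 Ras family genes rose and 3 fell (24% and 12%), and 7 of 17 Arf family genes rose and 1 fell (41.2% and 5.88%), beside 27.7% and 21.9% of all genes. The medians were 0.25 and 0.34 on the log2 scale. Beside these, 21 of 50 Rab genes rose and 13 fell. The differences between the families were not tested. Arl11 (3.79 ± 0.57) led the rises in the Arf family, and Sar1b, which forms secretory vesicles at the endoplasmic reticulum, was the Arf family gene that fell (-2.55 ± 0.46).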

How the data were processed

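RNA of 45 rat muscle samples was hybridised singly to Affymetrix arrays. The deposited values are probe set intensities on a linear scale, made by the authors with MAS5 per the submitters' processing notes (version and scaling target not given in the sources used here). Trimmed means of 600.2 to 600.31 (2% trimmed at each end) show per-array scaling. The number of arrays limits the precision, and no detection calls were used.

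Here, 57 control probe sets were dropped and log2(intensity + 12.4) was taken (the 10th percentile of all values), so fold changes of dim genes are understated. Probe sets with a mean of at least 6.03, the 30th percentile, were tested (21729). Contrasts were fitted with limma 3.58.1 (lmFit, contrasts.fit, eBayes with trend) in R 4.3.3, using 30 arrays for gastrocnemius, 15 for soleus and 45 for comparisons of muscles. Benjamini-Hochberg adjustment ran over all tested probe sets, threshold 0.05, in 15 comparisons. The fitting code was tested on simulated data. The labels call the replicates biological. No pair of arrays correlated above 0.966.

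Probe sets were named from GEO's platform annotation; all 97 Rab probe sets matched RefSeq by gene identifier with the same symbol. Partner proteins (10 symbols such as Rab3il1, Rab3ip and Rab5if, 13 probe sets) and 3 probe sets naming several Rab genes were left out. A gene is its brightest tested probe set. Named genes are the 6 largest rises and 6 largest falls at high dose with exercise, those called without exercise, up to 4 per direction between muscles or in other comparisons, and 8 housekeeping or GLUT4 Rabs whatever their values; lists give up to 3 genes per side. Members, lists and rules were chosen with earlier results of these data known. Same-numbered replicates were checked for pairing: in 0 of 12 comparisons did every pair's deviations correlate above 0.1 (range -0.29 to 0.34). Alternatives changed the offset, filter, normalisation, probe set choice, samples in the fit, array weights, variance trend and replicate block (centring on tested probe sets was added after seeing the data), and left out single arrays or the 3 arrays of lowest actin ratio.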

Additional observations from a re-analysis of the deposited data

Results flagged for a closer look

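Single arrays stood apart from the other 3 of their group, by Dixon's test at the 95% level, in 12 of 189 gene and group pairs among the named genes; chance alone marks about 1 in 20. Low-dose unexercised gastrocnemius replicate 3 accounts for 4 of them, all high: Rab38 read 940.8 (the others 94.7 to 130.9), Rab13 772 (214.9 to 268.4), Rab1a 14228 (7057 to 7678) and Rab11a 6008 (3873 to 4084). In high-dose exercised soleus, Rab38 was high on replicate 1 (638.6, the others 139 to 157.9), Rab6a low on replicate 1 (2904, the others 4049 to 4114) and Rab40b low on replicate 3 (544.6, the others 782 to 831.9). In low-dose exercised gastrocnemius Rab32 was high on replicate 4 (622.4), and in unexercised vehicle gastrocnemius Rab40b was low on replicate 1 (714). In unexercised vehicle soleus Rab1a was low on replicate 2 (7789.9) and Rab23 high on replicate 1 (686). In exercised vehicle soleus Rab2a was high on replicate 3 (6525).

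The high-dose effect in exercised rats differed between the muscles, by limma's interaction term with Benjamini-Hochberg adjustment, for 16 of the 21 named genes. This count was largely fixed by the choice of genes, since most were named for their high-dose effect in exercised gastrocnemius or for this interaction itself, and it supports nothing; over the array 11.6% of probe sets had a higher and 13.7% a lower effect in soleus. As soleus minus gastrocnemius on the log2 scale, the effect was lower in soleus for Rab38 (-2.64), Rab31 (-2.27), Rab13 (-2.12), Rab27a (-1.98), Rab32 (-1.91), Rab8a (-1.71), Rab1a (-1.28) and Rab11a (-1.10). It was higher in soleus for Rab40b (2.41), Rab3a (2.05), Rab28 (1.36), Rab2a (1.32), Rab12 (1.21), Rab10 (1.09), Rab4a (1.07) and Rab7a (0.97).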

How the results depend on the processing

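In exercised gastrocnemius at high dose the count of 48 called Rab probe sets stayed between 39 and 46 when any 1 array was left out and within 1.5 times under every other setting, with no called probe set changing direction. Centring arrays on the median of every probe set shifted the overall median change to -0.11 and gave 26 higher and 18 lower Rab calls; centring on tested probe sets, added after seeing the data, gave -0.28 and 23 higher and 23 lower. The 10 calls without exercise were the least stable: 22 with 1 fit on all arrays, 0 with only the groups compared, 53 with array weights, 28 without the 3 arrays of lowest actin ratio, and 0 to 36 with 1 array left out. With the replicate number as a block they fell to 6, and the block moved no other count of Rab calls by over 1.5 times; the numbers were not shown to pair the samples. Array weights gave 4 calls for exercise by high dose, 14 and 23 for soleus against gastrocnemius in unexercised and exercised vehicle rats, and 41 for muscle by high dose without exercise. Without the 3 lowest actin ratios the vehicle muscle counts were 13 and 19. Leaving out 1 array gave 4 to 7 for the unexercised muscle difference and 0 to 21 for muscle by high dose without exercise. Rab5a, not called, turned sign under both centrings (-0.06 and -0.23) and without vehicle replicate 2 (-0.02) or high-dose replicate 1 (-0.01) in exercised gastrocnemius; over the arrays left out its value ran from -0.02 to 0.13. The counts in this paragraph are given without the share of all probe sets under the same setting. A change in them therefore cannot be read as particular to the Rab genes. The causes were not tested.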
